A study of Mus musculus with 9 samples.

Results

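The mitochondrial ribosomal proteins are the nuclear-encoded protein subunits of the ribosome that works inside mitochondria. Their genes were taken by name, as the protein-coding genes whose symbol is Mrpl or Mrps followed by a number. This gave 75 of the 41761 genes in the table, of which 20461 are protein-coding. The symbol assigns 47 of them to the large subunit (Mrpl) and 28 to the small subunit (Mrps). The naming rule uses no expression value, although it was chosen with earlier results of these data known.

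RNA was sequenced from primary stromal cells of wild type C57 mouse inguinal white fat that had been differentiated into white adipocytes. Sodium alginate, a seaweed polysaccharide, was present throughout at 0, 50 or 100 µM, with 3 libraries at each dose and 9 in all. Cells at all 3 doses, the 0 µM control included, received the same inducing medium of insulin (1 µg/ml), dexamethasone (1 µM), isobutylmethylxanthine (0.5 mM) and 10% serum. Induction lasted 48 hours at every dose. The treatment protocol also lists rosiglitazone (1 µM), an agonist of the fat cell receptor PPAR gamma, at every dose, whereas the design text omits it. Titles give day 6 and the protocol gives RNA collection on day 7, and for the 100 µM libraries the dose comes from the treatment label, since their titles read 50 µM. Whether the 3 libraries at one dose represent different cultures or mice is not stated in the labels, and each p-value therefore reflects only library-to-library spread, part of which could be technical.

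The mitochondrial ribosome translates the few messages of the mitochondrial genome, all of which code for core proteins of the respiratory chain and the ATP synthase. Its ribosomal RNAs come from mitochondrial DNA, but every protein subunit is made in the cytosol and imported. The large subunit holds the peptidyl transferase center, the exit tunnel, the central protuberance and the stalk that receives translation factors. Small subunit proteins surround the decoding center. Many subunits have a bacterial counterpart with the same number and others, mostly with higher numbers, are specific to mitochondria. Fat cells raise their mitochondrial content as they differentiate, and several of these genes cause inherited disorders of oxidative phosphorylation when mutated.

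Promoter sequences are shown first because the members lie on many chromosomes, while some share short letters near their start. Of the 75 members, 66 had a promoter in RefSeq (build GRCm38.p6), taken as 250 bases before to 50 bases after each start and searched on both strands. The letters CCGGAAG, the core bound by ETS factors such as GABP, occurred in 23 of the 66 (34.8%), against 21.1% of the promoters of 8416 tested genes and 9.93% of all 27025 symbols. The letters GCGCATGC of nuclear respiratory factor 1 (NRF1) occurred in 8 (12.1%), against 6.29% of tested genes and 3.05% of all symbols. The letters AAGATGGC of YY1 occurred in 12 (18.2%), against 5.61% and 3.19%. The other searches gave GGGCGG (Sp factors) in 50.0%, against 70.9% of tested genes and 38.2% of all symbols, CCAAT in 40.9%, against 42.7% and 41.1%, and TATAAA in 6.06%, against 8.56% and 15.7%. GGGCGG and CCAAT are short and were searched without regard to overlap with the others. Below are the stretches around such letters for the members with the largest or smallest differences at 100 µM that held an NRF1, ETS or YY1 match in the 250 bases before the start, 5′ to 3′ on the gene's strand, with the matched letters of either strand in capitals. Bases that GENCODE annotates as UTR or coding sequence on the same build were left off, except for Mrpl33 and Mrps16, whose match lies in an annotated 5′ UTR and is shown in 30 bases. Mrpl34 (chr8:71464676-71464925, plus strand) and Mrpl51 (chr6:125191950-125192164, plus strand) were among the most raised members, and Mrpl52 (chr14:54426659-54426908, plus strand) and Mrpl33 (chr5:31613921-31613950, plus strand) had the lowest log2 fold changes of all. Mrps16 (chr14:20393546-20393575, minus strand) had the largest difference of the small subunit and Mrps27 (chr13:99344706-99344785, plus strand) one of the smallest. 
Mrpl34: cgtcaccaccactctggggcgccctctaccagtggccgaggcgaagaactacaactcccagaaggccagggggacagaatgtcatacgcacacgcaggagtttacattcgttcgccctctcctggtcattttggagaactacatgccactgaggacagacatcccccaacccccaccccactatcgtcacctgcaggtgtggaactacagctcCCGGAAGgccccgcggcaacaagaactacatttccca
Mrpl51: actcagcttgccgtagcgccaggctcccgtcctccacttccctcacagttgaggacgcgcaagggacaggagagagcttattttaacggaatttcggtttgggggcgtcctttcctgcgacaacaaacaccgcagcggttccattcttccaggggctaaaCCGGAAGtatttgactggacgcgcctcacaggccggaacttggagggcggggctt
Mrpl52: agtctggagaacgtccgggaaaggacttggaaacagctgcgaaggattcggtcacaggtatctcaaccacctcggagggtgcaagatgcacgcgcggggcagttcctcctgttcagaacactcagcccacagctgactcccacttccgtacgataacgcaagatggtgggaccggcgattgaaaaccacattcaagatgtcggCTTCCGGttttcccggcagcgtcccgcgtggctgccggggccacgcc
Mrpl33: agccttctaccggaacccGCGCATGCcccg
Mrps16: ttgggggcgctCTTCCGGgcttcaggctct
Mrps27: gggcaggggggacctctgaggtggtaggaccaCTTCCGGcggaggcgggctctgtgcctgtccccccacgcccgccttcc
A match is a description of letters and not of binding. Members on both ends of the range thus held the same ETS letters. Over the whole window of 250 bases before to 50 after the start, the 33 tested members with an NRF1, ETS or YY1 match had a median log2 fold change of 0.36 at 100 against 0 µM with 28 called higher, and the 31 tested ones without had a median of 0.34 with 28 called higher.

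The deposited values are FPKM, fragments scaled to gene length and library depth, and rebuilt whole reads ranged from 14019672 to 17094467 per library. Replicate pairs of a dose differed by more than counting noise, with a chi-square per gene of 3.21 to 7.22, and the highest values were those of the third 50 µM library. The differentiated state was checked with 12 adipocyte markers, all of them detected, whose summed level was 7398 to 7526 FPKM at 0 µM. Fold changes below are log2 differences of FPKM + 1 from limma, fitted across the 12635 genes that reached 1 FPKM in 3 or more libraries. Calls were made below 0.05 after Benjamini-Hochberg adjustment over all of them.

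Expression of the mitochondrial ribosomal proteins was higher with 100 µM alginate than without. Of the 75 members, 73 passed the filter on low values, and 65 of these were called higher at 100 µM while 0 were called lower. Over all genes tested, 18.3% were called higher and 15.6% lower. The median log2 fold change of the 73 members was 0.35, beside 0.01 for all genes tested, and single members ranged from -0.10 to 0.70. In 66 members every 100 µM value lay above every 0 µM value, against 25% of all genes. The summed level of the members went from 1679 ± 31.4 FPKM (SD, n = 3) at 0 µM to 1860 ± 80.6 at 50 µM and 2263 ± 101 at 100 µM. Between 0.309% and 0.320% of all reads fell on them in the control libraries, between 0.334% and 0.360% with 50 µM and between 0.381% and 0.409% with 100 µM, so the doses did not overlap. In the same libraries all 12 adipocyte markers were called higher and 5 of 6 tested progenitor markers lower, as given with the other cell types below. These are bulk samples, in which fewer cells of a type and less RNA per cell cannot be told apart.

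**Figure D1:**
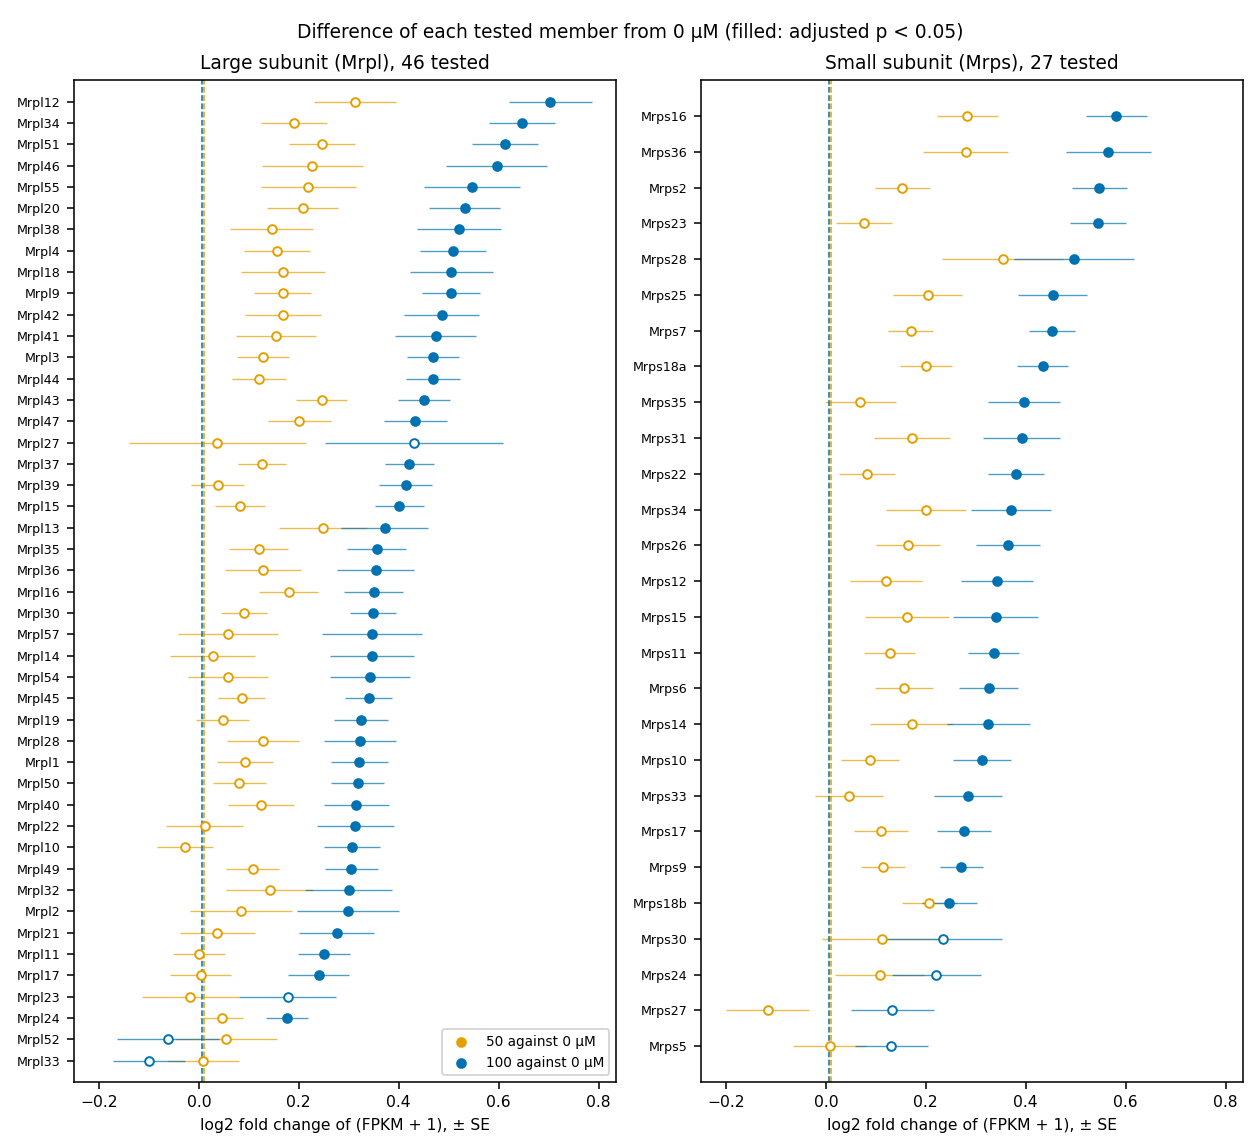
Log2 fold change of FPKM + 1 (x axis, ± SE) for each of the 73 tested members, sorted by the value at 100 µM, with large subunit genes on the left and small subunit genes on the right. Orange points compare 50 with 0 µM and blue points 100 with 0 µM, filled points passed an adjusted p of 0.05, and dashed lines are the medians of all genes tested. At 100 µM 65 points are filled and at 50 µM none is.

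In the large subunit, 42 of 46 tested members were called higher at 100 µM, with a median log2 fold change of 0.35. Mrpl12, the homologue of the bacterial stalk protein L7/L12, which also binds the mitochondrial RNA polymerase, had the largest difference of all members. It lies on chromosome 11 (128731259 to 128735711 on the C57BL/6NJ strain assembly used by the table). Mrpl12 was at 55.3, 54 and 48.5 FPKM at 0 µM, 62.3, 64.8 and 69.5 at 50 µM and 96.1, 86.1 and 77.2 at 100 µM. The 3 doses did not overlap, and the log2 fold change at 100 against 0 µM was 0.70 ± 0.083 (SE; adjusted p = 2.5e-04), a rise of 64.4%. A lincRNA gene, Gm16755, overlaps Mrpl12 on the opposite strand with a mean of 1.08 FPKM, and whether the counting used strand is not given in the sources used here.

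Mrpl34, a small basic protein of the large subunit core with a bacterial counterpart, was at 60.9, 57.6 and 54.2 FPKM at 0 µM, 63.7, 61.4 and 72.6 at 50 µM and 93, 89.3 and 89.3 at 100 µM. All 100 µM values were above all others, and the log2 fold change was 0.65 ± 0.066 (SE; adjusted p = 1.2e-04). Mrpl51, a subunit specific to mitochondria, was at 16.1, 17.2 and 15.4 FPKM at 0 µM, 20.5, 17.9 and 19.99 at 50 µM and 24.9, 27 and 24.1 at 100 µM. Again the doses did not overlap, with a log2 fold change of 0.61 ± 0.066 (SE; adjusted p = 1.5e-04). Mrpl34 and Mrpl51 are among the members shown above with ETS letters before their start.

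Mrpl46, a mitochondria-specific protein of the central protuberance, was at 19.1, 19.4 and 16.9 FPKM at 0 µM, 21, 20.2 and 24.1 at 50 µM and 26.6, 33.1 and 25.9 at 100 µM. One 100 µM library was well above the other two, and the log2 fold change was 0.60 ± 0.10 (SE; adjusted p = 0.00182). Mrpl55 was at 24.2, 26.8 and 24.5 FPKM at 0 µM, 33.1, 25.4 and 30.4 at 50 µM and 34.2, 37.3 and 40.5 at 100 µM. Its 50 µM values overlapped those at 0 µM, and its log2 fold change at 100 µM was 0.55 ± 0.096 (SE; adjusted p = 0.00218). Mrpl20, whose bacterial counterpart is needed early in large subunit assembly, was at 57.1, 55.9 and 57.2 FPKM at 0 µM, 65.4, 62.5 and 69.2 at 50 µM and 89.9, 85 and 73.3 at 100 µM. The doses did not overlap, with a log2 fold change of 0.53 ± 0.071 (SE; adjusted p = 4.9e-04).

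The smallest differences of the large subunit were those of Mrpl23, Mrpl24, Mrpl52 and Mrpl33. Mrpl24, a protein at the exit tunnel, was at 21.6, 21.4 and 21.3 FPKM at 0 µM, 21.1, 22 and 23.4 at 50 µM and 24.2, 24.5 and 24.4 at 100 µM. Its spread was so small that the log2 fold change of 0.18 ± 0.043 (SE; adjusted p = 0.0113) was called, but the call was lost when the values were rescaled to TPM, quantile normalized or analysed with voom on rebuilt reads, and without the authors' factor per library. Mrpl23, another protein at the exit tunnel, had a log2 fold change of 0.18 ± 0.097 (SE; adjusted p = 0.194) and was not called. Mrpl52 was at 20.5, 23.1 and 22 FPKM at 0 µM, 22.6, 20.6 and 25.2 at 50 µM and 24, 20.9 and 18.1 at 100 µM. Its doses overlapped throughout, and the value of -0.06 ± 0.10 (SE; adjusted p = 0.684) turned positive, to 0.03, without the third 100 µM library. Mrpl33 was at 4.75, 4.69 and 4.51 FPKM at 0 µM, 5.07, 4.15 and 4.89 at 50 µM and 4.53, 4.22 and 4.08 at 100 µM, with overlapping doses and a log2 fold change of -0.10 ± 0.071 (SE; adjusted p = 0.322). The Mrpl33 gene of the table runs over 67049 bases on chromosome 5 and shares 39860 of them with Rbks on the opposite strand, which averaged 2.45 FPKM. On the same strand, the processed transcript Gm43809 shares 67046 bases with Mrpl33 and averaged 0 FPKM.

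Mrpl27 was the fourth large subunit member that was not called, and it is named here after its values were seen. It was at 19.5, 31.7 and 19.2 FPKM at 0 µM, 23.6, 20.9 and 26.4 at 50 µM and 28.6, 35.6 and 29.7 at 100 µM. The second control library was far above the other two, and the log2 fold change was 0.43 ± 0.18 (SE; adjusted p = 0.0934). Without that library it was 0.66 ± 0.11, with an adjusted p of 0.0037 from limma. It was 0.32 without the first control library and 0.31 without the third (limma adjusted p = 0.254 and 0.262). Leaving out any other single library gave no call. With voom on rebuilt reads from all 9 libraries Mrpl27 was called, narrowly, at 0.37 (limma adjusted p = 0.0487).

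The 36 tested large subunit members between these extremes had log2 fold changes from 0.24 (Mrpl17) to 0.52 (Mrpl38), and 35 of them were called, all but Mrpl27. Their mean level over the 9 libraries ran from 6.47 to 104 FPKM. The most abundant, Mrpl42, was at 92.2, 87.6 and 85.5 FPKM at 0 µM, 108, 92.6 and 98 at 50 µM and 129, 132 and 112 at 100 µM. Its 3 highest values were the 100 µM libraries, with a log2 fold change of 0.49 ± 0.076 (SE; adjusted p = 0.00114). Mrpl10, which anchors the stalk, overlapped the controls at 50 µM and stood above them at 100 µM. It was at 35.5, 33.8 and 37.8 FPKM at 0 µM, 32.8, 35.6 and 36.7 at 50 µM and 44.8, 45.4 and 42.8 at 100 µM, with log2 fold changes of -0.03 ± 0.056 (SE; adjusted p = 0.886) at 50 µM and 0.31 ± 0.056 (SE; adjusted p = 0.00276) at 100 µM. Mrpl43 and Mrpl13 had 50 µM values that all lay above the control values. For Mrpl43 they were 26.5, 25.9 and 26.9 FPKM at 0 µM, 29.4, 31.7 and 33.7 at 50 µM and 37.5, 36.2 and 35.8 at 100 µM, and for Mrpl13 6.23, 6.6 and 5.39 FPKM at 0 µM, 7.57, 6.86 and 7.73 at 50 µM and 8.81, 8.44 and 7.21 at 100 µM. Mrpl10 and Mrpl43 were picked after their values were seen.

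Groups by place in the subunit were drawn up from general knowledge after the values were seen. Their counts stand beside 42 of 46 tested large subunit members and 18.3% of all genes called higher at 100 µM. With so many members called, almost any such group would be called nearly in full, so the counts do not set these places apart. The 3 proteins listed for the stalk and its base (Mrpl10, Mrpl11 and Mrpl12) were all called higher at 100 µM. So were the 4 listed for the central protuberance (Mrpl18, Mrpl38, Mrpl40 and Mrpl46). The median log2 fold changes were 0.31 and 0.51. These lists do not hold every protein of these places, and Mrpl52 and Mrpl33, the members with negative values, are on neither. Of 8 proteins at or near the exit tunnel, 7 were called, with a median of 0.33. Among these, Mrpl44, which has an RNase III-like fold, had a log2 fold change of 0.47 ± 0.054 (SE; adjusted p = 2.3e-04), and Mrpl45, which helps tether the ribosome to the inner membrane, 0.34 ± 0.047 (SE; adjusted p = 5.8e-04). The 28 large subunit members with numbers up to 36, which mostly follow the bacterial numbering, had a median of 0.35 with 25 called. The 18 tested members with higher numbers had a median of 0.43 with 17 called. That difference was not tested.

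**Figure D2:**
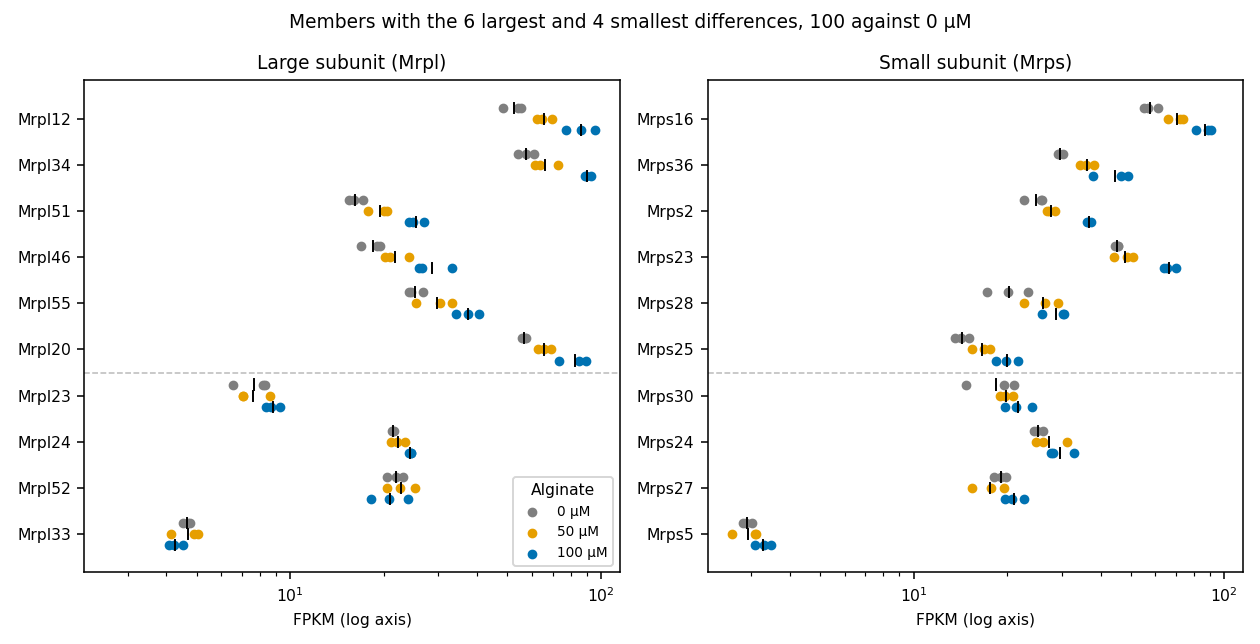
FPKM (log axis) in each of the 9 libraries for the members with the 6 largest (above the dashed line) and 4 smallest differences at 100 against 0 µM, for each subunit. Each point is a library, colours give the dose and black ticks the mean of 3 libraries. Above the line the 100 µM points lie above the 0 µM points for every gene, and below it they do so for 4 of 8 genes.

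In the small subunit, 23 of 27 tested members were called higher at 100 µM, with a median log2 fold change of 0.34. Mrps16, which has a bacterial counterpart and whose loss causes an inherited respiratory chain defect, had the largest difference. Mrps16 was at 55.2, 57 and 61 FPKM at 0 µM, 71.9, 66.1 and 73.5 at 50 µM and 90.5, 88.9 and 81.3 at 100 µM. Its doses did not overlap, and the log2 fold change was 0.58 ± 0.060 (SE; adjusted p = 1.2e-04). Mrps36 carries a ribosomal name but is known as a component of the 2-oxoglutarate dehydrogenase complex of the citric acid cycle. It was at 29.3, 29.1 and 30.2 FPKM at 0 µM, 34.5, 35.8 and 38.2 at 50 µM and 46.6, 48.9 and 37.9 at 100 µM. The third 100 µM library lay within the 50 µM range, and the log2 fold change was 0.57 ± 0.085 (SE; adjusted p = 9.3e-04).

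Mrps2, a homologue of bacterial S2, was at 25.7, 26 and 22.6 FPKM at 0 µM, 27.3, 28.6 and 27 at 50 µM and 36.3, 37.2 and 36.3 at 100 µM. All 100 µM values were above all others, with a log2 fold change of 0.55 ± 0.055 (SE; adjusted p = 1.0e-04). Mrps23, which is specific to mitochondria, was at 45.5, 45.6 and 44.6 FPKM at 0 µM, 50.7, 44.1 and 48.5 at 50 µM and 64.1, 69.9 and 65.3 at 100 µM. The 0 and 50 µM values overlapped and the 100 µM values stood apart from both, with log2 fold changes of 0.54 ± 0.056 (SE; adjusted p = 1.1e-04) against 0 µM and 0.47 ± 0.056 (SE; adjusted p = 5.5e-04) against 50 µM. Mrps28 was at 17.2, 23.4 and 20.2 FPKM at 0 µM, 26.5, 22.7 and 29.1 at 50 µM and 30.5, 30.2 and 25.8 at 100 µM. Its 50 and 100 µM values overlapped. The log2 fold change at 50 µM was 0.35 ± 0.12 (SE; adjusted p = 0.212), not called, and at 100 µM 0.50 ± 0.12 (SE; adjusted p = 0.0115). Mrps25 was at 13.6, 14.2 and 15.1 FPKM at 0 µM, 16.8, 15.5 and 17.6 at 50 µM and 18.5, 21.7 and 19.8 at 100 µM, with a log2 fold change of 0.45 ± 0.069 (SE; adjusted p = 0.00103).

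The 4 smallest differences of the small subunit were Mrps30, Mrps24, Mrps27 and Mrps5, which were also its 4 members not called. Mrps27, a pentatricopeptide repeat protein, was at 19.9, 19.2 and 18.2 FPKM at 0 µM, 15.4, 19.6 and 17.8 at 50 µM and 20.7, 22.6 and 19.7 at 100 µM. Its lowest value was at 50 µM, and the log2 fold change at 100 against 0 µM was 0.13 ± 0.083 (SE; adjusted p = 0.257). Mrps5, at the entry of the mRNA channel, was the member with the lowest level among those tested, at 3.03, 2.89 and 2.82 FPKM at 0 µM, 2.61, 3.12 and 3.1 at 50 µM and 3.3, 3.47 and 3.1 at 100 µM. The 100 µM values were just above the control values, with a log2 fold change of 0.13 ± 0.073 (SE; adjusted p = 0.204). Mrps24 had a log2 fold change of 0.22 ± 0.089 (SE; adjusted p = 0.0875) and was called only without the third 50 µM library (adjusted p = 0.0353 from limma).

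The 17 small subunit members between these extremes had log2 fold changes from 0.25 (Mrps18b) to 0.45 (Mrps7), and all 17 were called. Mrps12, which lies at the decoding center and is the counterpart of the bacterial target of streptomycin, was at 24, 24.1 and 22.6 FPKM at 0 µM, 24.2, 24.7 and 28.5 at 50 µM and 32.7, 29.1 and 28.8 at 100 µM. Its 0 and 50 µM values nearly touched, and its log2 fold change at 100 µM was 0.34 ± 0.072 (SE; adjusted p = 0.00576). Mrps35, with a low level for its long annotated gene, was at 4.61, 4.01 and 3.99 FPKM at 0 µM, 4.2, 4.38 and 4.78 at 50 µM and 5.68, 6.28 and 5.58 at 100 µM. The 100 µM values stood above all others, with a log2 fold change of 0.40 ± 0.071 (SE; adjusted p = 0.00252). Mrps22, a subunit with known disease mutations, was at 13.6, 13.7 and 13.3 FPKM at 0 µM, 14.8, 13.2 and 15.3 at 50 µM and 18.2, 18.3 and 17.3 at 100 µM, with a log2 fold change of 0.38 ± 0.056 (SE; adjusted p = 8.3e-04). Mrps12 and Mrps22 were picked after their values were seen.

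Some names differ from the place of the protein. Mrps30 and Mrps18a are named after the small subunit but sit in the large subunit by structure. Mrps30 was at 19.5, 21.1 and 14.8 FPKM at 0 µM, 19, 19.7 and 20.9 at 50 µM and 24.1, 21.3 and 19.7 at 100 µM, with overlapping doses and a log2 fold change of 0.23 ± 0.12 (SE; adjusted p = 0.167). The 3 proteins of the Mrps18 family descend from bacterial S18 and take different places in the ribosome. Mrps18a was at 9.23, 8.88 and 8.4 FPKM at 0 µM, 10.2, 9.83 and 10.9 at 50 µM and 12, 12.3 and 12.5 at 100 µM, and Mrps18b was at 11.9, 12 and 12.6 FPKM at 0 µM, 14.7, 13.4 and 14.5 at 50 µM and 15.6, 14.1 and 14.3 at 100 µM. Both were called higher at 100 µM, with log2 fold changes of 0.43 ± 0.052 (SE; adjusted p = 2.7e-04) and 0.25 ± 0.054 (SE; adjusted p = 0.007), and the call of Mrps18b was lost with voom (0.20, adjusted p = 0.0584). Mrps18c did not pass the filter. It was at 0.284, 5.17 and 0.388 FPKM at 0 µM, 0.147, 0.257 and 0.0525 at 50 µM and 0.198, 0.182 and 0.275 at 100 µM, so that a single control library stood above the other 8.

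The second member below the filter was Mrpl53, listed at 0 in all 9 libraries. Its gene lies wholly inside Gm42688 on the same strand (900 shared bases, chromosome 6, 86399699 to 86400598 on the strain assembly), and that gene averaged 0.138 FPKM. Of the 75 members, 36 overlap another gene of the table and 27 have at least 1 other row that carries their name in its description, such as a processed pseudogene. Among the 39 tested members with no overlapping gene, 36 were called higher at a median of 0.35, and among the 47 tested without a named copy, 43 were, at a median of 0.35. Those copies were low, with at most 3.32 FPKM on average.

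Mrps7, a homologue of bacterial S7 that was picked after its values were seen, was at 30.4, 31.2 and 31.7 FPKM at 0 µM, 34.2, 34.6 and 36.6 at 50 µM and 45, 41.9 and 41.9 at 100 µM, with no overlap between doses and a log2 fold change of 0.45 ± 0.045 (SE; adjusted p = 1.0e-04).

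The tested Mrpl members had a higher mean FPKM level than the tested Mrps members. Their differences from 0 µM had nearly the same median at 100 µM. The gap in level holds only for genes with such a symbol. It leaves out a gene described as Mrps21 that averaged 152 FPKM. FPKM also fell with annotated gene length (Spearman's rho = -0.77 across members), so the gap cannot be read as a difference in subunit amount. Averaged over tested members, the level on the log2(FPKM + 1) scale was 4.44 ± 0.023 (SD, n = 3) for the large and 4.07 ± 0.030 for the small subunit at 0 µM. At 50 µM the means were 4.56 ± 0.054 and 4.21 ± 0.057, and at 100 µM 4.82 ± 0.060 and 4.43 ± 0.051. The large minus small difference was 0.37, 0.37 and 0.39 in the control libraries, 0.37, 0.34 and 0.34 at 50 µM and 0.38, 0.41 and 0.38 at 100 µM. The control values overlapped those of both other doses, while all 100 µM values lay above all 50 µM values. That separation was not tested. The median log2 fold changes at 100 against 0 µM, 0.35 for the large and 0.34 for the small subunit, differed by 0.01, and leaving out single libraries moved this difference between -0.02 (without the second 100 µM library) and 0.06 (without the second control library). Counting Mrps18a and Mrps30 with the large subunit, or leaving out Mrps36, kept it at 0.01.

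**Figure D3:**
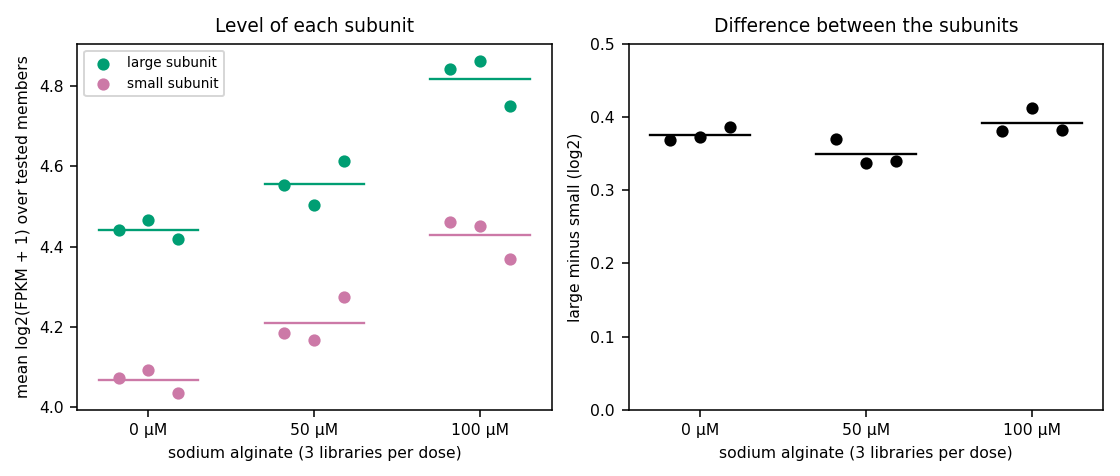
Left, mean log2(FPKM + 1) over the tested large (green, 46 genes) and small (pink, 27 genes) subunit members in each library, by alginate dose. Right, the large minus small difference in the same libraries; lines are means of 3 libraries. Both subunits are highest at 100 µM, and the difference stays between 0.34 and 0.41 in all 9 libraries.

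At 50 µM the members lay between the other doses, without any of them reaching the threshold. In limma 0 of 73 members were called higher or lower against 0 µM, where 0.356% of all genes were called higher and 0.435% lower, so few calls were made in this comparison at all. At an unadjusted p below 0.05, 26 members were higher and 0 lower, where 8.63% of all genes were higher. The median log2 fold change was 0.12, beside 0.01 for all genes, with 0.12 for the large and 0.15 for the small subunit. In 36 members every 50 µM value lay above every 0 µM value, against 12.1% of all genes. The smallest adjusted p-values were those of Mrpl43 (0.25 ± 0.052 (SE; adjusted p = 0.0662)) and Mrps16 (0.28 ± 0.060 (SE; adjusted p = 0.0703)). Both passed the threshold among genes with at least 5 FPKM (adjusted p = 0.0429 each in limma), and Mrpl12, Mrpl51 and Mrps16 passed it with voom on rebuilt reads. Mrps27 had the lowest value, -0.12 ± 0.083 (SE; adjusted p = 0.589).

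The members were also higher at 100 than at 50 µM. Against 50 µM, 47 of 73 members were called higher at 100 µM and 0 lower, where 13.2% of all genes were called higher and 12% lower. These were 33 of 46 large and 14 of 27 small subunit members, with median log2 fold changes of 0.28 and 0.22. No overlap, with the 100 µM values above, was seen in 56 members, against 20.9% of all genes. The largest values were those of Mrps23, given above, and Mrpl34 (0.46 ± 0.066 (SE; adjusted p = 0.00138)). The number of calls fell to 28 without the second 100 µM library, 30 without the second 50 µM library and 29 without the authors' factor per library. Dose means rose in order from 0 over 50 to 100 µM in 68 of 73 members, 42 large and 26 small, and in 29.6% of all genes tested. Each dose shares its libraries with 2 of these comparisons, so the comparisons are not independent of each other.

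Levels differed far more among the members than between doses. Mean FPKM over the 9 libraries ran from 3.05 for Mrps5 to 104 for Mrpl42, a 34.2-fold range. Mrpl42, Mrpl34 (71.3 FPKM) and Mrpl20 (68.4) had the highest level of the large subunit and Mrpl13 (7.20), Mrpl19 (6.47) and Mrpl33 (4.54) the lowest. In the small subunit Mrps16 (71.7), Mrps6 (54.2) and Mrps23 (53.1) were highest, and Mrps10 (5.62), Mrps35 (4.84) and Mrps5 lowest. These ranks cover only genes that carry an Mrpl or Mrps symbol. A protein-coding gene described as Mrps21 but listed without a symbol averaged 152 FPKM, above every member. Another, described as Mrpl48, averaged 3.61 FPKM. Gene lengths in the table run from 566 bases for Mrps16 to 8649 for Mrps35, and over the tested members mean FPKM fell with that length (Spearman's rho = -0.77 across genes, which are not independent and share the libraries). In reads the range was 8.28-fold, so the order of FPKM values rests partly on the annotated lengths. Members with a higher level also tended to have larger log2 fold changes at 100 µM (rho = 0.41 across genes), on a scale whose added 1 FPKM shrinks the changes of low genes. Within a dose the members were tight, with a median coefficient of variation of 4.46% at 0 µM, 6.26% at 50 µM and 6.10% at 100 µM, and a highest value of 30.3% for Mrpl27 at 0 µM.

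Other genes of mitochondrial translation were taken from lists made up for this comparison, and their counts at 100 against 0 µM stand beside the 18.3% of all genes called higher. Of 6 mitoribosomal proteins that carry other names, 5 were called higher and 0 lower, at a median of 0.30. Ptcd3, a pentatricopeptide repeat protein of the small subunit, went from 19.7 ± 0.914 FPKM (SD, n = 3) to 27.4 ± 0.805 at 100 µM, or 0.45 on the log2 scale (limma adjusted p = 1.2e-04). Aurkaip1 (0.35), Ict1 (0.36), a peptidyl-tRNA hydrolase built into the large subunit, and Dap3 (0.25), a GTP-binding protein of the small subunit, were also called.

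Of 23 genes for mitoribosome assembly and ribosomal RNA modification, 10 were called higher and 0 lower, at a median of 0.22. They include the methyltransferase Rnmtl1 (0.42), Mpv17l2 (0.41), the assembly factor Malsu1 (0.38) and Ngrn (0.28). Among 16 tested translation factors 10 were called higher, at a median of 0.31, and 0 lower. The elongation factor Gfm1 went from 32.0 ± 2.19 FPKM at 0 µM to 48.3 ± 1.29 at 100 µM, a log2 fold change of 0.58. Gfm2, which acts in ribosome recycling, had 0.43. Taco1, a translational activator (0.50), and Oxa1l, the inner membrane insertase (0.37), were called too.

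Of 17 mitochondrial aminoacyl-tRNA synthetases 11 were called higher, at a median of 0.27, and 0 lower. Fars2 (0.51), Lars2 (0.44), Tars2 (0.30) and Iars2 (0.27), which charge the tRNAs for phenylalanine, leucine, threonine and isoleucine, had the smallest p-values. This count was 5 without the authors' factor per library and 6 after rescaling to TPM, and for the assembly genes it was 7 under both. Of 22 genes for mitochondrial DNA and RNA maintenance 15 were called higher, at a median of 0.29, among them Lrpprc (0.48), which stabilises mitochondrial messages, Fastkd1 (0.50), Hsd17b10 (0.46), a subunit of mitochondrial RNase P, and Polrmt (0.43), the mitochondrial RNA polymerase bound by Mrpl12. Messages of the mitochondrial genome itself were not analysed here, apart from mt-Nd6, which is listed at 0 in every library.

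Of 11 nuclear regulators of mitochondrial genes, 3 were called higher and 1 lower, at a median of -0.02. Ppargc1a, a coactivator of mitochondrial biogenesis, went from 2.71 ± 0.371 FPKM to 5.90 ± 0.0703 at 100 µM, a log2 fold change of 0.90. Its relative Ppargc1b had 0.62 and Gabpa, an ETS subunit of GABP, 0.28. Pprc1, the third member of the coactivator family, fell by 0.16 on the log2 scale. Nrf1, the factor for the GCGCATGC letters, was at 1.88 FPKM at 0 µM and 1.83 at 100 µM and Yy1 at 25.4 and 24.1, and neither was called.

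The members' products serve the respiratory chain, whose nuclear subunits are given for comparison. Of 82 tested, 75 were called higher at 100 µM and 1 lower, at a median of 0.55, above the members' 0.35. Uqcrc1 of complex III rose from 76.4 ± 0.781 to 117 ± 2.03 FPKM, Ndufv1 and Ndufa10 of complex I by 0.65 and 0.67 on the log2 scale, and Cox7a1 of complex IV by 1.17. The exception was Ndufa4l2, a hypoxia-induced relative of a chain subunit, which fell by 1.29. Cytosolic ribosomal proteins, by contrast, had a median of -0.17 with 1 of 62 called higher and 3 lower. The gene called higher, Rps19bp1, binds a ribosomal protein and entered that list by its name, and those called lower were Rps3, Rpl22 and Rps20. The number called lower depended on the scaling, with 10 without the authors' factor per library, 27 in TPM, 37 with voom and 38 after quantile normalization, while 1 was called higher under each. Under these scalings 59 to 63 of the 73 members were called higher and 0 lower. The balance over all genes also moved, from 2314 higher and 1965 lower to 1620 and 2636 in TPM.

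**Figure D4:**
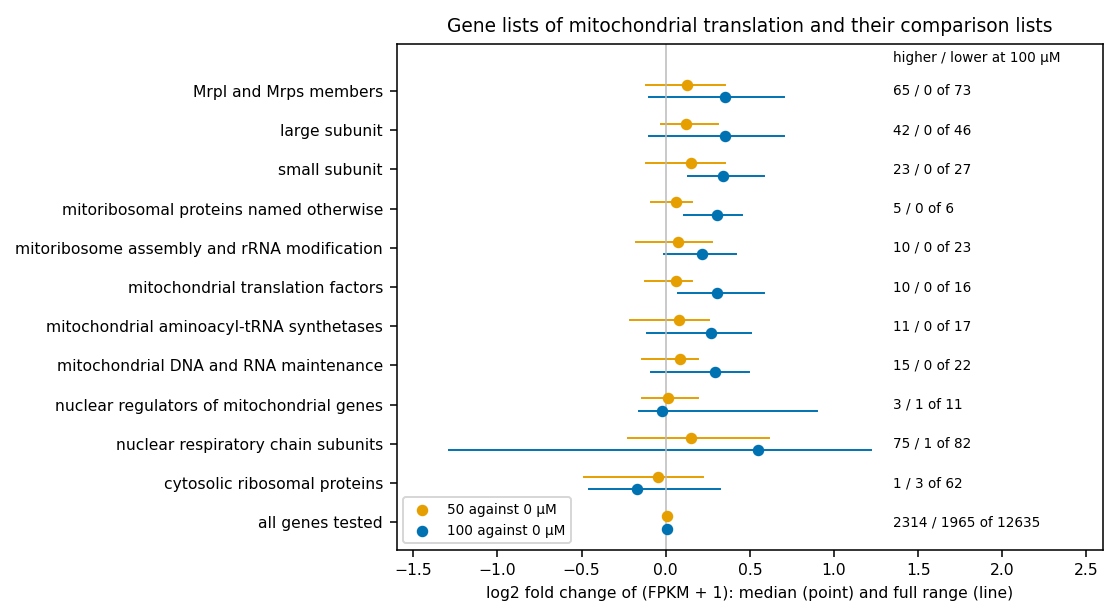
Median (point) and full range (line) of the log2 fold change of FPKM + 1 for the members, both subunits, related gene lists and all genes tested (median only), at 50 against 0 µM (orange) and 100 against 0 µM (blue). Numbers on the right are genes called higher and lower among those tested at 100 µM. The medians of the mitochondrial translation lists lie between 0.22 and 0.31 at 100 µM, the respiratory chain at 0.55 and the cytosolic ribosomal proteins at -0.17.

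Cell type markers moved with the dose as well. All 12 markers of mature adipocytes were called higher at 100 µM, and their sum lay between 7398 and 7526 FPKM at 0 µM, between 7983 and 8409 at 50 µM and between 10541 and 11248 FPKM at 100 µM. The sum of the adipose progenitor markers was between 740 and 824 FPKM at 0 µM, between 686 and 789 at 50 µM and between 424 and 496 at 100 µM, and 5 of 6 tested were called lower. Macrophage markers, 6 of 6 tested called lower, summed to 148 to 162 FPKM, 152 to 160 and 116 to 117 at the 3 doses, and endothelial markers, 5 of 6 called lower, to 117 to 129, 111 to 121 and 98.5 to 102.5. Smooth muscle and pericyte markers lay between 277 and 318 FPKM in sum at 0 µM, 276 and 327 at 50 µM, and 183 and 203 at 100 µM, with 2 of 5 called lower and 1 higher. Of the mesothelial markers only Krt19 was tested, and it was called lower at 100 µM (-0.70, limma adjusted p = 0.00406). All 3 epithelial markers and the lymphocyte marker Cd3e were below 1 FPKM in every library. Control libraries thus carried progenitor, macrophage, endothelial, and smooth muscle and pericyte marker messages next to those of adipocytes. Their part in the difference of the mitochondrial ribosomal proteins was not tested.

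**Figure D5:**
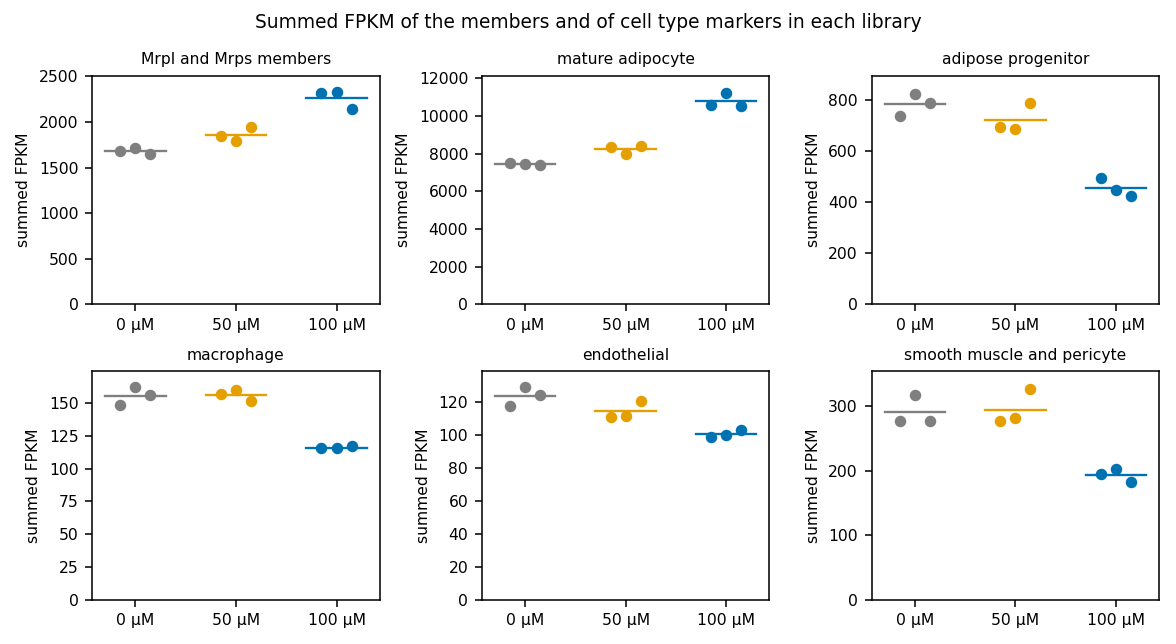
Summed FPKM (y axis, from 0) in each library, by alginate dose, for the 75 members and for markers of 5 cell types; lines are means of 3 libraries. The members and the adipocyte markers are highest at 100 µM, where the progenitor, macrophage, endothelial and smooth muscle sums are lowest.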

How the data were processed

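The authors deposited 1 table of FPKM values for 9 RNA-seq libraries, per the file headers. The aligner and the counting tool were not stated in the labels. Builds GRCm38 and mm10 appear in the submitters' processing notes, but the table carries identifiers and coordinates of the strain assembly C57BL/6NJ. Coordinates were not converted, and promoter sequences are RefSeq's on GRCm38.p6. Multiplied by gene length, 100% of values were whole multiples of a constant of their library (tolerance 0.01 read), which allowed whole reads to be rebuilt. The deposited values already carry a factor per library that equals a median-of-ratios size factor, with a mean ratio of scaling total to reads of 1.02, 1.02 and 0.973 at 0, 50 and 100 µM.

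Values were analysed as log2(FPKM + 1) in limma 3.58.1 (R 4.3.3), with 1 mean per dose over all 9 libraries, moderated variances with a trend and two-sided tests. Genes that reached 1 FPKM in 3 or more libraries entered, 12635 in all, and p-values were adjusted over all of them. The procedure was run on simulated reads, with changes larger than that of any member. How well it finds differences of the members' size was not tested. Alternatives were a pseudocount of 0.1, other filters, TPM, quantile and median-of-ratios scaling, 2 doses only, a replicate block, robust variances, each library left out, and, added after seeing the data, voom on rebuilt reads and values without the authors' factor. Named members are the 6 largest and 4 smallest differences and the 3 highest and 3 lowest levels of each subunit, those below the filter, the Mrps18 family and Mrps30. From every other list the 4 genes with the smallest p and those called against the list's direction are named. The members, the lists and these rules were chosen with earlier results of these data known. Some symbols on the lists were not found in the table and were not analysed here, and protein sequences were not used here. The lymphocyte list is not reported here in full.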

Additional observations from a re-analysis of the deposited data

How the results depend on the processing

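Over 20 alternatives to the analysis, the members called higher at 100 against 0 µM numbered 59 to 65, and 70 of 79 with the mitoribosomal proteins named otherwise, while 0 were called lower. The median log2 fold change stayed between 0.28 and 0.40. In all 20, 57 of the 65 calls were made, and Mrpl2 was lost in 13, Mrpl32 in 7, Mrpl57 in 6, Mrpl21 in 5, Mrpl24 in 4, and Mrpl17, Mrps14 and Mrps18b in 1 each. The difference between the median log2 fold changes of the subunits ran from -0.0208 to 0.0552 when single libraries were left out. At 50 against 0 µM, 2 members were called higher with a filter of 5 FPKM and 3 with voom, and 0 under the other alternatives; the cause was not tested. At 100 against 50 µM the count ran from 28 to 57 over the alternatives, from 28 to 48 when single libraries were left out, and was 57 with the filter of 5 FPKM and 29 without the authors' factor. Mrpl52 ran from -0.158 to 0.0341 when single libraries were left out, positive at 0.0341 only without the third 100 µM library. With the replicate number as a block, 65 members were called higher at 100 µM, 0 at 50 µM and 39 at 100 against 50 µM. Same-numbered libraries correlated at -0.09 to 0.04 and others at -0.08 to 0.10 in their deviations. No pairing by number was seen, but a weak one could be missed, and the labels do not say what the numbers mark. The block is not described further. Median-of-ratios scaling left the values as deposited. The planned count models on rebuilt reads were not run, since the deposited unit is FPKM, and voom was used in their place. Each tested member had at least 160 reads in every library, and Mrps18c and Mrpl53 had too few to compare.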
